A study of Mus musculus with 2 samples.

Results

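Mir143, Mir145a and Mir145b are 3 of the 2202 microRNA genes counted in the adrenal gland. They were chosen by their GENCODE M21 symbols, matched through Ensembl identifiers, a rule that takes no measured value. The study holds 2 microRNA sequencing libraries from whole adrenal glands. The mice were B6CASTF1/J males at an age of 36 days. This strain is an F1 hybrid of C57BL/6J and CAST/EiJ. The labels give no treatment, no genotype beyond the strain and no second group, so only the 2 libraries could be set against each other. They number the animals separately but give both the same donor record, so nothing beyond these numbers shows that the spread between the libraries is one between animals.

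MicroRNAs are cut from hairpin precursors and repress messenger RNAs that pair with their seed. In mice and humans, miR-143 and miR-145 are cut from a shared primary transcript and are best known from smooth muscle cells and pericytes, the contractile cells of vessel walls. Serum response factor and its partner myocardin drive the locus, and both microRNAs favour the contractile over the proliferative state of smooth muscle, in part by repressing Klf4, Klf5 and Elk1. The adrenal gland is a densely vascular organ whose capsule, arterioles and sinusoids hold such cells.

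In these libraries Mir143 was among the highest microRNA genes of the gland, Mir145a stood far below it, and Mir145b was at the detection limit. Between the libraries the members of the cluster moved in opposite directions. Mir143 was higher in replicate 1 and Mir145a was higher in replicate 2, so that Mir143 exceeded Mir145a by 28.8 times in replicate 1 and by 6.56 times in replicate 2.

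The annotation places only Mir143 and Mir145a together. In mm10, Mir145a (ENSMUSG00000065592.2) lies on chromosome 18 from 61647825 to 61647894, and Mir143 (ENSMUSG00000065445.3) lies from 61649196 to 61649258. Both are on the minus strand, with Mir143 first in the direction of transcription and 1301 bases between the hairpins. Mir145b (ENSMUSG00000098366.1) was listed for this work as the gene opposite Mir145a, but it lies on the same strand 7.37 Mb away, from 69022199 to 69022273. None of the 3 hairpins overlaps another gene of GENCODE M21. In that annotation the long noncoding RNA Carmn, a smooth muscle transcript of the same strand, ends 366 bases before Mir143. Bvht, a long noncoding RNA known from heart development, lies on the plus strand and ends 352 bases from Mir145a. The RefSeq annotation of GRCm38.p6, the assembly on which mm10 rests, extends Carmn from 61645878 to 61665538, a span that holds both hairpins. The nearest other microRNA genes on the chromosome are Mir378a, 249924 bases away in the direction of transcription, and Mir122, 3599602 bases away on the other side.

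**Figure D1:**
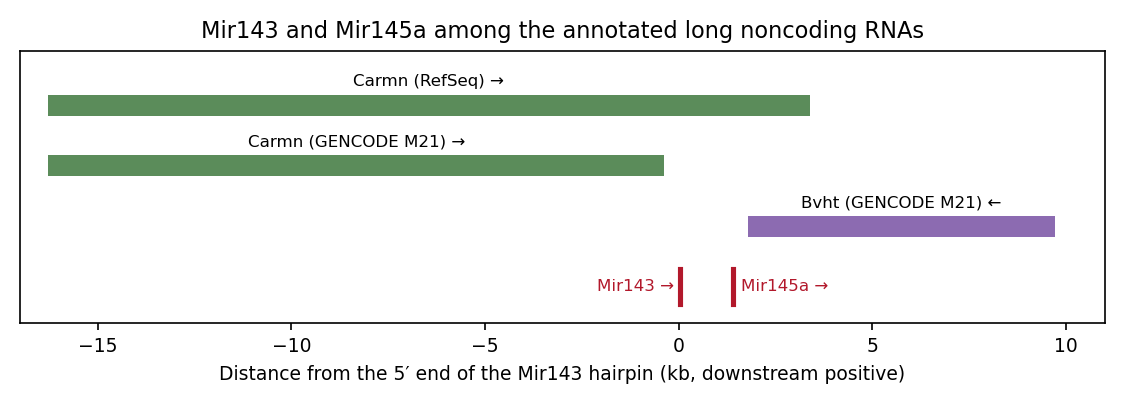
Map of the Mir143 and Mir145a hairpins (red) with the long noncoding RNAs Carmn (green, as annotated by GENCODE M21 and by RefSeq) and Bvht (purple), drawn to scale in kb from the 5′ end of the Mir143 hairpin, with arrows for the direction of transcription. Mir145a lies 1301 bases downstream of Mir143, and only the RefSeq span of Carmn holds both.

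The hairpins are 63 bases long for Mir143, 70 for Mir145a and 75 for Mir145b, with 55.6%, 48.6% and 46.7% GC. The longest run of bases shared by the Mir145a and Mir145b hairpins was 17. No other annotated microRNA hairpin shared 18 bases in a row with any of the 3, on either strand. The rest of the genome was not searched. Multiply mapped reads did not enter the counts of any gene.

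Replicate 1 held 4494857 sense counts on microRNA genes, 36.6% of its reads, and replicate 2 held 2078824, or 20.1%. Reads mapping to several places made up 29.8% and 21.5%, and unmapped reads 26.4% and 51.9%. The libraries also differed in markers of cells outside the vessel wall. The 3 listed erythroid genes took 1.58% and 0.109% of gene counts in replicates 1 and 2, mostly from Mir451a. Mir486, also on that list, had 38.7 and 35.1 CPM and was not called. The 5 epithelial miR-200 genes took 0.00647% and 0.358%, and the 3 pancreas acinar genes had 0 and 677 counts. The 4 brown adipose genes took 5.42% and 9.74%, nearly all from Mir378a, so these shares describe that gene more than the list. Mir193b, also on that list, had 256 and 3032 CPM. Leukocyte genes summed to 0.322% and 0.390%. Of the 5, 3 were called higher in replicate 1, against 38.7% of all tested genes (median log2 ratio of replicate 2 over replicate 1 -0.52). Neuroendocrine genes summed to 4.88% and 5.42%, mostly from Mir375. Of the 4, 3 were called higher in replicate 1, against the same 38.7% (median -0.54). Lists of 4 or 5 genes are too short to tell such a count from that share. The part of these list differences in the results below was not tested.

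Mir143 had 202482 counts in replicate 1 and 54514 in replicate 2. On the scale of counts per 1000000 gene counts (CPM), this was 45047 in replicate 1 and 26223 in replicate 2, a mean of 35635 ± 13311 (SD, n = 2). Its share of gene counts was 4.50% in the first library (95% interval by the Clopper-Pearson method 4.49 to 4.52) and 2.62% in the second (2.60 to 2.64). Both libraries therefore held it well above the tested genes at large, and its rank was 6 in replicate 1 and 8 in replicate 2. Its mean level ranked 7 among all genes, and 6 when divided by hairpin length. By mean level its neighbours were Mir375 at 47963 ± 5397 CPM and Mirlet7i at 39730 ± 6467 CPM above, and Mir10a at 34139 ± 18451 CPM and Mir23a at 28832 ± 16087 CPM below. Mir143 was above Mir23a in both libraries, whereas its order against Mir375, Mirlet7i and Mir10a differed between the libraries.

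Mir145a had 7029 counts in replicate 1 and 8311 in replicate 2, although replicate 2 held fewer gene counts. Its level was 1564 CPM in replicate 1 and 3998 CPM in replicate 2, a mean of 2781 ± 1721 (SD, n = 2). It took 0.156% of gene counts in replicate 1 (0.153 to 0.160) and 0.400% in replicate 2 (0.391 to 0.408), and ranked 56 and 39 of the 2202 genes. Tests covered the 333 genes that reached 10 counts in each library, and Mir145a stood above 86.2% of them and Mir143 above 97.9%. Mir145a thus belonged to the upper range of the profile in both libraries.

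Mir145b had 1 count in replicate 1 and 0 counts in replicate 2. Its share in replicate 1 was 2.22e-05% of gene counts (exact 95% interval 5.63e-07 to 0.000124%), or 0.222 CPM. In replicate 2, the floor of 3 counts that a count of 0 allows equals 1.44 CPM, and the two-sided exact interval used for replicate 1 would reach 1.77 CPM. At this depth the libraries do not tell whether the gene is transcribed in the gland, and it entered no test between them. PCR copies were not marked, so these intervals and limits describe counting error alone.

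All counts of the 3 genes came from the sense strand. The opposite-strand column held 0 counts for each of them in both libraries, and the strand-blind column kept 100% of their sense counts. For 29 tested genes with another microRNA gene on the facing strand, by contrast, the strand-blind column kept a median of 0% of sense counts. The endothelial gene Mir126a is such a gene, with 336351 sense and 8 strand-blind counts in replicate 1. The levels of Mir143 and Mir145a relative to Mir126a therefore rest on the sense column.

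**Figure D2:**
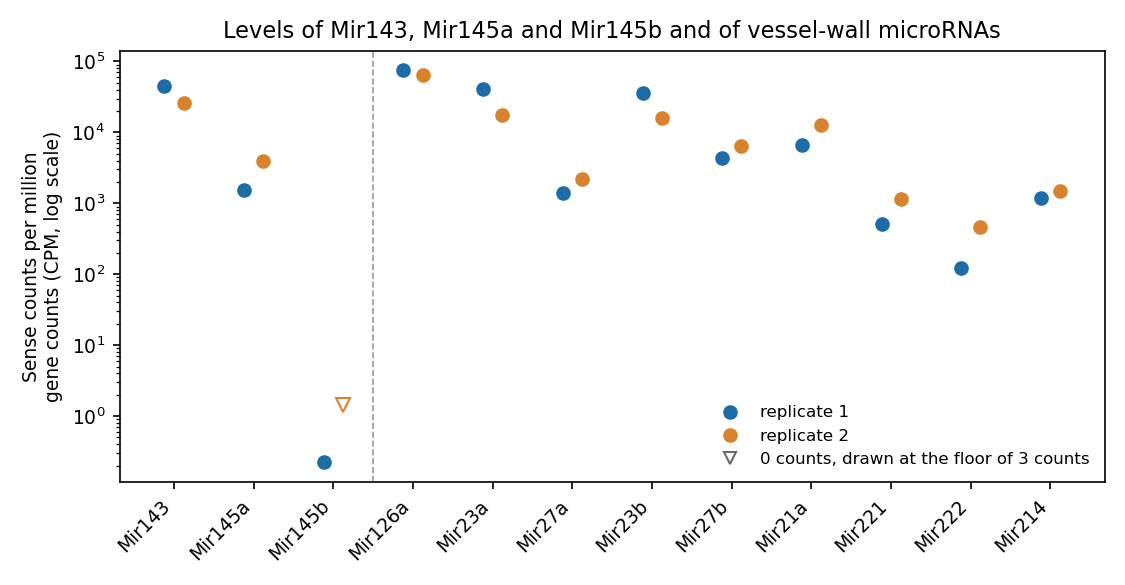
Sense CPM on a log axis for the 3 members (left of the dashed line) and for other vessel-wall genes, with 1 point for each library and an open triangle for 0 counts, drawn at the floor of 3 counts. Mir143 is higher in replicate 1 and Mir145a in replicate 2, while Mir23a and Mir23b are higher in replicate 1 and Mir27a and Mir27b in replicate 2.

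After TMM scaling, the log2 ratio of replicate 2 over replicate 1 was -0.97 for Mir143 (counting interval -0.98 to -0.95), or 1.95-fold higher in replicate 1. For Mir145a it was 1.17 (1.12 to 1.21), or 2.25-fold higher in replicate 2. Both passed a two-sided exact binomial test with Benjamini-Hochberg adjustment over 333 genes, with adjusted p below 1e-300. This test compares these libraries and takes counting noise as the only error. It called 78.1% of all tested genes, 38.7% as higher in replicate 1 and 39.3% as higher in replicate 2. A call of both members is thus no more than the background gives. An edgeR exact test, with the common dispersion taken from the same 2 libraries (a biological coefficient of variation of 52.7%), called 0.601% of genes. Neither member was among them, with unadjusted p of 0.389 for Mir143 and 0.300 for Mir145a and an adjusted p of 0.988 for each. By that test neither difference could be told from the general spread between these libraries.

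Both members differed more between the libraries than the median gene of at least 1000 CPM. Of the 87 genes with a mean of at least 1000 CPM, the median absolute log2 ratio was 0.69. The ratio of Mir143 was exceeded in size by 26 of them, and that of Mir145a by 18. In the member's own direction, 15 lay further than Mir143 and 7 further than Mir145a. Those 7 all had lower mean levels than Mir145a. Over all 333 tested genes the median absolute log2 ratio was 0.62 and the median log2 ratio was 0.01. With scaling by library size alone, the median of all tested genes moved to 0.19, Mir143 to -0.78 and Mir145a to 1.35. The change of scale moved every gene by the same amount.

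**Figure D3:**
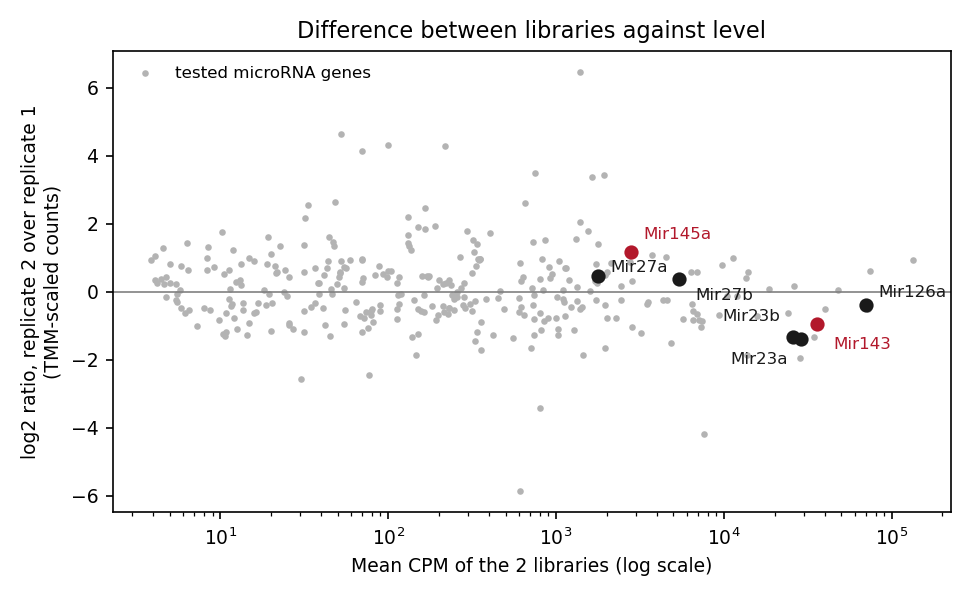
The log2 ratio of replicate 2 over replicate 1 (TMM-scaled sense counts) against the mean CPM of the libraries (log axis) for the 333 tested genes, with Mir143 and Mir145a in red and vessel-wall genes in black. Mir143 lies at -0.97, inside the cloud of genes of similar level. Mir145a lies at 1.17, at the upper edge of the genes at its level or above.

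The ratio of Mir143 to Mir145a within a library needs no scaling. Mir143 exceeded Mir145a 28.8-fold in replicate 1 (exact 95% interval 28.1 to 29.5) and 6.56-fold in replicate 2 (6.41 to 6.71). Per hairpin base the ratios were 32.0 and 7.29. Mir145a held 3.35% of the counts of the pair in replicate 1 (3.28 to 3.43) and 13.2% in replicate 2 (13.0 to 13.5). The intervals do not overlap, and the ratio differed 4.39-fold between the libraries, a log2 shift of -2.13 (two-sided Fisher's exact test, adjusted p below 1e-300 over 105 pairs).

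The same test was run on all 105 pairs of neighbouring tested genes of the same strand within 10 kb. It called 78.1% of them, so the call alone does not set the cluster apart. In order of size its shift was number 5 of 105, against a median absolute log2 shift of 0.73. The larger shifts were those of Mir30d with Mir30b at -3.03, Mir376c with Mir667 at -2.62, Mir200c with Mir141 at 2.33 and Mir15b with Mir16-2 at 2.14. The next below was that of Mir369 with Mir410 at -2.11. In 28 pairs (26.7%) the binomial test called the genes in opposite directions, as it did for Mir143 and Mir145a. Of 15 pairs with both genes at a mean of at least 1000 CPM, only Mir30d with Mir30b had a larger shift. The binomial test called the genes of 6 of those 15 pairs in opposite directions, Mir143 with Mir145a among them. In 10 of those 15 pairs, and in 55 of all 105, the gene with the higher mean was the one that lost relative to its neighbour in replicate 2. Values of numbered copies such as Mir16-2 are uncertain, because they lack the reads that fit more than 1 copy.

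**Figure D4:**
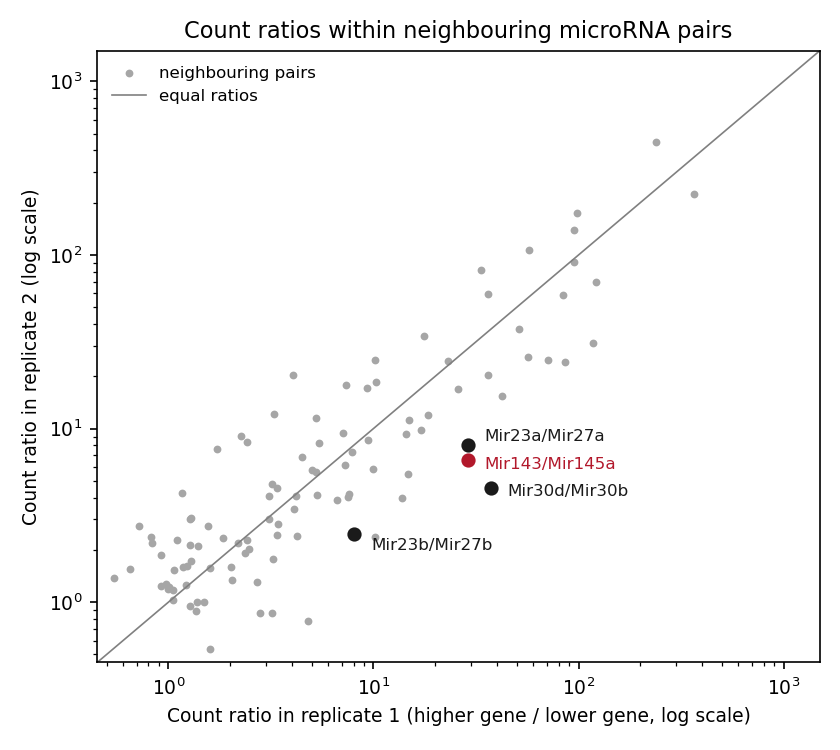
Count ratio of the higher to the lower gene of each of 105 neighbouring microRNA pairs in replicate 1 (x axis) and replicate 2 (y axis), both on log axes, with the line of equal ratios. Mir143/Mir145a (red) lies below the line at 28.8 and 6.56, near Mir23a/Mir27a at 28.9 and 8.04.

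Other microRNAs of vessel walls gave a setting for these values. Mir126a, the main endothelial microRNA gene, had 74830 CPM in replicate 1 and 64786 CPM in replicate 2. Mir143 stood at 0.602 times the count of Mir126a in replicate 1 (exact 95% interval 0.599 to 0.605) and at 0.405 times in replicate 2 (0.401 to 0.409). For Mir145a these values were 0.0209 (0.0204 to 0.0214) and 0.0617 (0.0604 to 0.0631). Per hairpin base they were 0.698 and 0.469 for Mir143, and 0.0218 and 0.0644 for Mir145a. Relative to the endothelial gene, Mir143 was thus 1.49-fold lower in replicate 2 and Mir145a 2.95-fold higher. Both shifts passed a two-sided Fisher's exact test (adjusted p below 1e-300 for each of the 2 ratios). No other gene was set against Mir126a in this way, so the share of genes that would pass is not known. The p-values reflect the sampling of reads and leave out the general spread between the libraries, so they do not set the members apart. Counts from whole glands cannot tell fewer mural cells from less of a microRNA per cell.

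The clusters of Mir23a and Mir23b, active in endothelium among other cells, held shifts between neighbouring genes in both directions. Mir23a exceeded Mir27a 28.9-fold in replicate 1 and 8.04-fold in replicate 2, a log2 shift of -1.84. Mir23b exceeded Mir27b 8.07-fold and 2.48-fold, a log2 shift of -1.70. In both clusters the miR-23 gene was higher in replicate 1 (log2 ratios -1.39 and -1.35) and the miR-27 gene higher in replicate 2 (0.46 and 0.36). The miR-24 genes, last in each cluster, were called higher in replicate 1 (log2 ratios of -0.67 for Mir24-2 and -0.48 for Mir24-1). The ratio of Mir27a to Mir24-2 therefore shifted the other way, from 5.24 to 11.5 (1.13), as did that of Mir27b to Mir24-1, from 97.8 to 175 (0.84). Mir24-1 and Mir24-2 are numbered copies, so their counts are uncertain. These 2 clusters are paralogs whose mature microRNAs are nearly alike.

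The mature sequences of the comparison genes are shown to make that likeness visible, with the seed (bases 2 to 8) in capitals, from RefSeq on GRCm38.p6. The miR-23 and miR-27 seeds differ, and miR-27a-3p and miR-27b-3p share their seed and differ at 1 base of 21.
miR-126a-3p: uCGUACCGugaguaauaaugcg
miR-23a-3p: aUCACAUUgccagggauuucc
miR-27a-3p: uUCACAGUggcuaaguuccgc
miR-27b-3p: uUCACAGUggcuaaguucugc

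The 7 listed genes linked to the switch of smooth muscle out of the contractile state, a process that miR-143 and miR-145 oppose, were all called higher in replicate 2. The list was drawn up with earlier results of these libraries known, so its calls are a description and no test of that switch. Their median log2 ratio was 0.92, against 0.01 over all tested genes and a background of 39.3% called in that direction. Mir21a, which is raised in proliferating smooth muscle, had 6588 CPM in replicate 1 and 12826 CPM in replicate 2 (log2 ratio 0.78). Mir221 and Mir222, a pair that represses the cell cycle inhibitor p27, had log2 ratios of 0.96 and 1.77. Mir31 had 109 and 1391 CPM (3.49), Mir146 had 1479 and 2008 CPM (0.26), and Mir26a-1 and Mir26a-2 had 0.92 and 0.71. Mir26a-1 and Mir26a-2 are numbered copies that lack the reads fitting both, so their values are uncertain. Mir26b, a miR-26 gene outside the list, had a mean of 28352 CPM. It was called higher in replicate 1 (log2 ratio -1.95). The shared direction of the 7 thus rests on which genes were listed. Mir146 was on the leukocyte list as well. Several of these genes are active in epithelium or leukocytes as well, and epithelial genes were higher in the same library. The part of those cells in the counts was not tested. By the edgeR exact test none of the 7 was called, and the lowest adjusted p was 0.165, for Mir31.

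Listed striated muscle genes, some of which share serum response factor as a driver, had counts at or near 0 once multiply mapped reads were left out. Of the 10 listed, 5 had 0 counts in both libraries (Mir1a-1, Mir1a-2, Mir133a-1, Mir133a-2 and Mir133b). The highest were Mir499 with 14 and 9 counts and Mir206 with 5 and 11. The list summed to 30 counts in replicate 1 and 23 in replicate 2, against 209512 and 62825 for the 3 members. Reads of the numbered copies that map to several places are not in these sums.

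Fibroblast and matrix genes, which mark the connective tissue around vessels, were all below Mir143 in mean level. Of the 8 listed, 7 were tested, 4 were called higher in replicate 2 (against 39.3% of all tested genes) and none was called higher in replicate 1, with a median log2 ratio of 0.14, which became -0.27 with no count minimum. Mir29a, which represses collagens, had 5085 and 8649 CPM, and Mir214, of the miR-199/214 transcript, had 1178 and 1474 CPM. Mir199b had 23.4 and 39.9 CPM, but the miR-199 loci share mature sequence, so their counts lack the multiply mapped reads and give no level for miR-199. By the edgeR exact test none of the 7 was called, with adjusted p of 0.988 or above.

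Among genes with a mean of at least 1000 CPM, those whose log2 library ratio lay nearest to that of Mir143 were Mir30e at -1.04, Mir100 at -1.05, Mir379 at -0.85, Mir151 at -0.83 and Mir872 at -1.11. Those nearest to Mir145a were Mir674 at 1.09, Mir320 at 1.02, Mir22 at 1.00, Mir484 at 1.40 and Mirlet7b at 0.93. This likeness rests on 2 libraries and is a description. By mean level, the neighbours of Mir145a were Mir100 at 2828 ± 1162 CPM and Mir324 at 2822 ± 701 CPM above, and Mir328 at 2749 ± 1367 CPM and Mir382 at 2450 ± 78.0 CPM below. Its order against each of these 4 genes differed between the libraries, with Mir145a below them in replicate 1 and above them in replicate 2.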

How the data were processed

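The deposited tables hold raw read counts per microRNA gene in a strand-blind column and a column for each strand. Their accompanying deposited text names mm10 and GENCODE M21. The column that holds nearly all gene counts was taken as sense. For the aligner and the counter, no name is given in the sources used here. All 2202 identifiers matched GENCODE M21. Rows for unmapped, multiply mapped, unassigned (7.16% and 6.46% of reads) and ambiguous (0%) reads were left out of library sizes.

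CPM is a count scaled to 1000000 gene counts. The members were proposed, and the lists and tests chosen, with earlier results of these data known, though the rule for members reads no value. All genes that reached 10 counts in each library were tested: TMM scaling (edgeR 4.0.16 in R 4.3.3), exact binomial tests and Fisher's exact tests (SciPy 1.17.1), threshold 0.05. With 1 group, edgeR's quasi-likelihood test had no contrast, so its exact test served as the alternative, and DESeq2 1.42.0 gave alternative size factors. The tests were tested on simulated counts with counting noise alone. That does not give their error rate under the spread between these libraries. Genes were named by rule: the members, 11 lists, the 2 nearest by level on each side, the 5 nearest by ratio, and the neighbouring pairs with the largest shifts. Mature sequences were matched by name for 4 microRNAs.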

Additional observations from a re-analysis of the deposited data

How the results depend on the processing

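Over 60 alternative settings of 13 results, which do not include the gene lists, none reversed a direction. In 53 the call held, the count stayed within 1.5 times or the value moved by less than the SD of the libraries, which is wide. Some of the 53 could not have come out otherwise. Leaving out 1 of 2 libraries always moves a mean by less than that SD. Count minimum, pair distance and hairpin length cannot change the shift of the Mir143 to Mir145a ratio. The edgeR exact test ended the calls of Mir143 (-0.97, adjusted p 0.988) and Mir145a (1.17, adjusted p 0.988) and called 2 genes in place of 260, since it adds the spread between the libraries to counting noise. With all reads as the denominator, the mean share moved to 1.09% for Mir143 and 0.0688% for Mir145a, and that of Mir145b from 1.11e-05% to 4.07e-06%. In the strand-blind column, which holds 8 and 4 counts of Mir126a, the shifts against Mir126a were -0.89 for Mir143 and 1.24 for Mir145a and no longer passed (adjusted p 0.296). Otherwise the log2 ratio of Mir143 ranged from -1.13 (no count minimum) to -0.78 (library size) and that of Mir145a from 1.00 to 1.35. With 1 library left out, the ratio of Mir143 to Mir145a was 6.56 or 28.8, around a geometric mean of 13.7, the ratio of Mir145a to Mir126a was 0.0617 or 0.0209 around 0.0359, and the share of Mir145a was 0.400% or 0.156% around 0.278%. The 7 genes of the smooth muscle state switch were called higher in replicate 2 under all 7 alternatives of scaling, count minimum, column and GC content. That list was drawn up with earlier results of these libraries known, and it leaves out Mir26b, which was called higher in replicate 1. With no count minimum, 2 in place of 4 fibroblast and matrix genes were called higher in replicate 2, and their median log2 ratio changed sign from 0.14 to -0.27. Depth limits statements on Mir145b, and 2 libraries limit all others.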
